A study of Mus musculus with 23 samples.

Results

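The genes examined here encode nuclear RNA-binding proteins: the heterogeneous nuclear ribonucleoproteins (hnRNPs), the serine- and arginine-rich (SR) splicing factors, the 2 Tra2 splicing activators, and 7 further proteins that bind repeat RNA or edit RNA. Members were all entries named Hnrnp followed by any ending, all entries named Srsf with a number, and Tra2a, Tra2b, Pura, Purb, Adarb1, Ncl, Zfp106, Mbnl1 and Mbnl2, where the mean over the libraries of a tissue was at least 0.5 RPKM (reads per kilobase of gene length, scaled to the alignments of the library). All 40 matching entries passed that minimum in both tissues, out of 20016 genes listed for cortex (13865 of them at the minimum) and 19890 for lumbar spinal cord (13839 of them). The lowest member mean in nontransgenic mice was 3.40 RPKM for Hnrnph3 in cortex, so no member stood close to the minimum. All 40 are protein-coding genes with a position in the GENCODE M21 annotation of build GRCm38.

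The series profiled RNA from cortex and lumbar spinal cord of C57BL/6 mice at 6 months of age. The 3 genotypes were nontransgenic mice (NTg), mice with an unexpanded human C9orf72 transgene (F08), and mice with a human C9orf72 transgene that carries the expanded repeat (F112, written F112exp in the labels). The transgenes are bacterial artificial chromosomes (BACs), long genomic fragments that keep their own promoter, and the mouse genes studied here are endogenous. Each transgene is given as 1 named line, so a difference between F08 and F112 can come from the repeat or from any other property of the lines, and these cannot be told apart. Cortex had 4 NTg, 4 F08 and 3 F112 libraries and spinal cord had 4 of each, 23 libraries from 12 mice, with sex not given. The question that the design poses for these genes is whether their RNA level differs with the transgene or with its expansion.

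Expansion of an intronic GGGGCC repeat in C9orf72 is a common genetic cause of amyotrophic lateral sclerosis and frontotemporal dementia in people. The repeat RNA is transcribed in both directions, gathers in nuclear foci and folds into G-rich structures, and several of the proteins encoded here have been found bound to it or held in its foci in human cells and tissue. hnRNPs coat nascent transcripts and often repress exons, SR proteins bind exonic enhancers and recruit the spliceosome, and both families regulate their own RNA through exons that lead to decay. Neurons depend on them for exon choice in synaptic and cytoskeletal genes.

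The tables hold values for whole tissue, in which fewer cells of a type and less RNA per cell cannot be told apart. Cortex libraries held 9398450 to 14715900 alignments, and cord libraries held 28479400 to 38811100. The tissues matched their labels: Slc17a7, a transporter of cortical glutamatergic neurons, ranged from 165.9 to 304.7 RPKM in cortex and did not exceed 1.81 RPKM in cord, while Hoxc10, a homeobox gene of the lumbar axis, ranged from 23.8 to 34.0 RPKM in cord and did not exceed 0.199 RPKM in cortex. In 3 cortex libraries (NTg 6322, NTg 6326 and F08 6320, named by mouse number) Ttr, which marks choroid plexus, was at 375 to 725 RPKM, against at most 16.6 RPKM in the other cortex libraries. Skeletal muscle markers also varied between cortex libraries. Acta1 reached 60.5 RPKM (median 7.70), Ckm 82.6 RPKM (median 2.48) and Myh4 14.1 RPKM (median 0.777). The highest cortex sums of these 3 genes were 139 RPKM (NTg), 157 RPKM (F08) and 66.1 RPKM (F112). The lowest were 7.37, 4.95 and 5.06 RPKM, by the same genotypes. The highest cord sum was 0.677 RPKM. The part of muscle RNA in the values of other genes was not tested. The summed level of 6 oligodendrocyte markers in cortex ran from 568 to 1137 RPKM in NTg, from 999 to 1585 RPKM in F08 and from 720 to 1115 RPKM in F112. Per-library values below are given in the order NTg 6322, 6323, 6326 and 6327, F08 6318, 6319, 6320 and 6321, and F112 6316, 6317, 6324 and, in cord only, 6325.

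Because GGGGCC is the unit of the repeat that these proteins are studied for, the DNA upstream of their start sites was searched for it. RefSeq promoters (build GRCm38.p6) were found for 37 of the 40 genes, 50 start sites in all, and the 250 bases upstream of each were scanned for GGGGCC or its reverse complement GGCCCC, which can overlap each other. The unit was present on either strand in 20 of the 50 windows, against 22.0% of 32851 windows over all genes, and the median GC content was 67.0% in the member windows and 52.4% over all. Hnrnpa0 held the most copies, 3, and Hnrnpd held 2. The 4 windows below show the range: Hnrnpa0, with the most copies, Hnrnph1 and Hnrnph3, whose RNA levels moved most between cortex libraries, and Zfp106, whose level moved least. Capitals mark the 6-base unit on either strand, each run reads 5′ to 3′ on the gene's strand, and a match is a description of the letters only.
Hnrnpa0 (chr13:58128557-58128806, minus strand): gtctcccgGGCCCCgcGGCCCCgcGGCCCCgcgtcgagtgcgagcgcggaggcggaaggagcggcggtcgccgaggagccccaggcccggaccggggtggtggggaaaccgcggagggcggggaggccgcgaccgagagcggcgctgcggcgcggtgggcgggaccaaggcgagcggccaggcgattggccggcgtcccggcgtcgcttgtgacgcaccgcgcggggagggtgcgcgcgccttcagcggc
Hnrnph1 (chr11:50377986-50378235, plus strand): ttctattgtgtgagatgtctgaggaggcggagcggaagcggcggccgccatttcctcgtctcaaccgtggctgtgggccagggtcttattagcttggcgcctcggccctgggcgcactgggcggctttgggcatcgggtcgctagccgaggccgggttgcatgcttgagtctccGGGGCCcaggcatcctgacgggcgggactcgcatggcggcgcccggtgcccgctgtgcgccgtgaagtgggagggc
Hnrnph3 (chr10:63023850-63024099, minus strand): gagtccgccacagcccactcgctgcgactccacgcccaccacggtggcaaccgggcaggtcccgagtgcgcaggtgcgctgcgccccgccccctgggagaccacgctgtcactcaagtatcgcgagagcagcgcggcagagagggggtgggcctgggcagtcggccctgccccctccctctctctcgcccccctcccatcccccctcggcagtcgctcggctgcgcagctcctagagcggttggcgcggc
Zfp106 (chr2:120563860-120564109, minus strand): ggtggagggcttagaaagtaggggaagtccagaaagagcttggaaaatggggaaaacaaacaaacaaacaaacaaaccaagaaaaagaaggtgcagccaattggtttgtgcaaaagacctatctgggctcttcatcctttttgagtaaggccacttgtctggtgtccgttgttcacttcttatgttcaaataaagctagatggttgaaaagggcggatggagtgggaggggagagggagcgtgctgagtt
The 3 copies in the Hnrnpa0 window stand in a tight cluster of GGCCCC units at its upstream end, the shown window of Hnrnph1 has 1 GGGGCC, and the Hnrnph3 and Zfp106 windows hold none. Hnrnph1 had 5 windows, 2 of them with no copy and 3 with 1, and the copy shown lies in 2 overlapping windows. The 20 windows with the unit belong to 17 of the 37 genes. The Hnrnph3 window is 73.6% GC and that of Zfp106 is 45.6% GC.

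In nontransgenic spinal cord the highest levels were those of Hnrnpk, a KH-domain protein that binds C-rich RNA, at 116 ± 2.46 RPKM (SD, n = 4), of Hnrnpa2b1, which binds and sorts transcripts for transport in neurites, at 98.3 ± 1.82 RPKM, and of Srsf5 at 91.3 ± 3.38 RPKM. The lowest were Srsf12 at 3.46 ± 0.280 RPKM and Hnrnpr at 7.49 ± 0.180 RPKM. In nontransgenic cortex the order began with Srsf5 at 63.3 ± 6.46 RPKM, Hnrnpu at 43.1 ± 4.23 RPKM and Srsf2 at 42.9 ± 9.21 RPKM, of which Hnrnpu and Srsf2 differed by less than their SD. Hnrnph3 was lowest in cortex at 3.40 ± 1.40 RPKM, next to Srsf12 at 3.85 ± 0.436 RPKM, and these also differed by less than the SD of Hnrnph3.

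Set side by side, 28 of the 40 genes were higher in every cord library than in every cortex library, 2 (Pura and Srsf9) were lower in every cord library, and 10 overlapped; over the 13101 genes present in both tissues the shares were 45.7%, 11.5% and 42.8%. The median ratio of nontransgenic means, cord over cortex, was 1.57 for the 40 genes and 1.33 for all genes. The ratio was 4.02 for Hnrnph3, 3.58 for Hnrnpa2b1, 3.05 for Hnrnpk and 2.91 for Hnrnpa3, and at the other end 0.755 for Pura and 0.608 for Srsf9. The tables were normalized separately, and by the labels brain was sequenced by Ion Torrent and cord by Illumina methods, so tissue and platform cannot be told apart and no test was made.

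**Figure D1:**
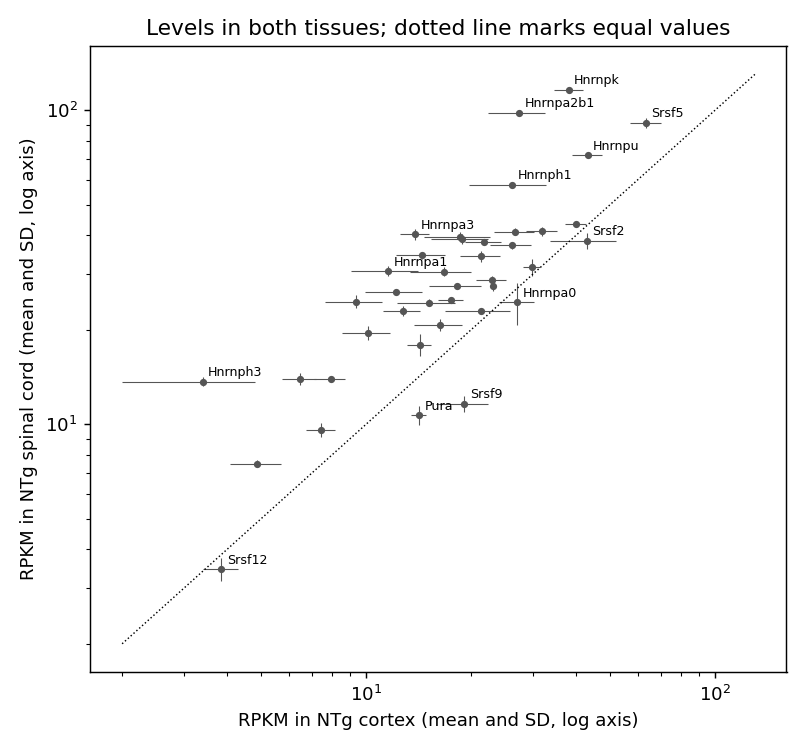
Mean RPKM with SD of the 40 genes in nontransgenic cortex (x, log axis) and nontransgenic spinal cord (y, log axis), n = 4 libraries each, with some genes named and a dotted line of equal values. Most points lie above the line, Hnrnph3 and Hnrnpa2b1 farthest, and 5 lie below it: Srsf9, Pura, and close to it Srsf2, Srsf12 and Hnrnpa0.

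No member passed the test between genotypes in either tissue. With limma on log2(RPKM + 0.5), Benjamini-Hochberg adjustment over all genes tested and a threshold of 0.05, 0 of 40 members were called in each of the 6 comparisons. Few genes of the tables were called at all: in cortex 0.00721% of all genes were called for F112 against NTg (1 gene), 0% for F08 against NTg and 0% for F112 against F08, and in cord 0.00723% (1 gene) for each transgene against NTg and 0.0217% (3 genes) for F112 against F08. At an unadjusted p under 0.05 in cortex there were 0 members against 1.97% of all genes for F112 and NTg, 0 against 2.61% for F08 and NTg, and 2 against 2.47% for F112 and F08. In cord the members at that level numbered 3 against 7.11% of all genes, 0 against 4.1%, and 7 against 10.4%, in the same order of comparisons.

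Few members had groups that did not overlap. In cortex that held for 1 member against 3.05% of all genes in F112 and NTg (Hnrnpl), 0 against 1.69% in F08 and NTg, and 2 against 3.57% in F112 and F08 (Hnrnpl and Srsf3). In cord it held for 1 against 3.07% in F112 and NTg (Hnrnpul1), 2 against 4.09% in F08 and NTg (Hnrnpd and Hnrnpdl), and 3 against 5.54% in F112 and F08 (Hnrnpa0, Hnrnpul1 and Srsf4). In each of these 9 cases the first-named group was the lower one.

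The precision differed between the tissues. The median SE of a member's log2 difference from NTg was 0.13 for F112 and 0.12 for F08 in cortex and 0.041 for both in cord. The whole 95% interval of the difference lay within 1.2-fold either way in cord for 38 of 40 members in F112 against NTg (83.4% of all genes), 40 in F08 against NTg (85.7%) and 37 in F112 against F08 (81.9%). In cortex it did so for 7 (10.6% of all genes), 7 (14.3%) and 5 (9.59%) members in the same order. For most members the cortical interval thus reached beyond 1.2-fold. The median member difference, beside that of all genes, was −0.04 (all −0.02) for F112 minus NTg, 0.05 (all −0.0016) for F08 minus NTg and −0.09 (all −0.02) for F112 minus F08 in cortex. In cord the 3 medians were 0.0071 (all −0.0099), 0.00013 (all 0.0071) and 0.0044 (all −0.016). In cortex 13 of 40 members lay above 0 in F112 minus NTg (43.6% of all genes), 31 in F08 minus NTg (49.5%) and 5 in F112 minus F08 (43.7%). In cord 24 (43.7%), 20 (55.6%) and 23 (41.2%) did in the same order. Within a tissue each pair of these comparisons shares a group of libraries. The cortical medians moved with single libraries and settings. F112 minus NTg was −0.12 without F112 6324, 0.05 without F112 6316 and −0.17 without the 3 libraries with high Ttr. F08 minus NTg was −0.0020 without NTg 6322, 0.11 without NTg 6323 and −0.13 without high Ttr. F112 minus F08 was −0.17 without F112 6324 and −0.01 without F112 6316. Without high Ttr, the only NTg libraries left were 6323 and 6327, with 14203100 and 14257300 alignments. The F08 and F112 libraries left had 9398450 to 13833300. Every cortex difference from NTg given without high Ttr rests on these libraries, and the part of alignments in it was not tested.

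**Figure D2:**
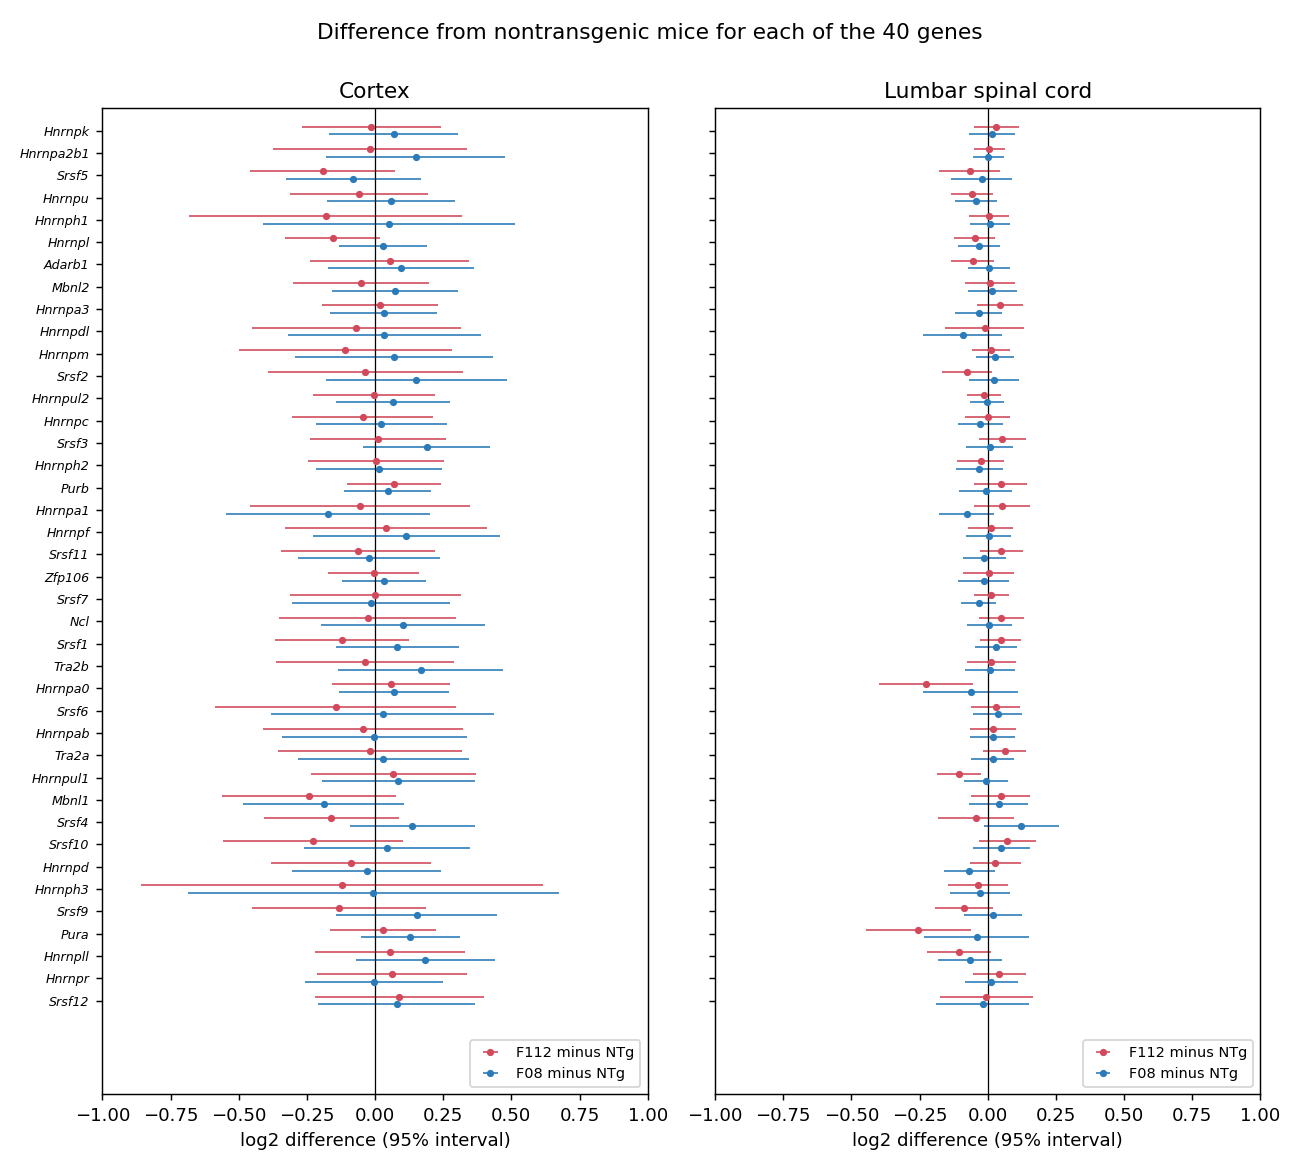
Log2 difference from nontransgenic mice with its 95% limma interval (x) for each of the 40 genes (y, ordered by level in nontransgenic cord), F112 in red and F08 in blue, cortex left and spinal cord right. Intervals in cord are narrower than in cortex for most genes, and Pura, Hnrnpa0 and Hnrnpul1 in F112 cord are the 3 whose unadjusted interval leaves out 0.

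Among the proteins tied to GGGGCC repeat RNA, Hnrnpa3, whose human protein binds the repeat and is found in inclusions of patients, gave close values in all groups. In cortex it stood at 12.8, 15.3, 12.5 and 14.6 RPKM in NTg, 13.8, 13.5, 15.9 and 13.3 in F08 and 13.4, 13.8 and 14.6 in F112. In cord it stood at 40.0, 39.3, 42.4 and 39.2 RPKM in NTg, 38.7, 39.0, 39.1 and 40.4 in F08 and 41.7, 39.9, 44.9 and 39.8 in F112. The 3 groups overlapped in both tissues, with F112 6324 the highest cord library. Hnrnph1, a G-tract binding splicing factor held in repeat foci in human cells, stood in cortex at 20.1, 33.9, 21.5 and 29.2 RPKM in NTg, 20.3, 23.6, 35.5 and 29.1 in F08 and 16.9, 24.3 and 27.7 in F112. Its cord levels were 59.3, 57.8, 57.0 and 57.1 RPKM in NTg, 58.6, 58.6, 55.3 and 60.2 in F08 and 55.4, 57.7, 60.5 and 58.4 in F112. The cord libraries lay within 1.09-fold of each other, while those of cortex spanned 2.10-fold, with high and low libraries in every genotype.

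Srsf1, the SR protein that links repeat transcripts to nuclear export in human cells and flies, stood in cortex at 16.1, 19.3, 16.8 and 17.9 RPKM in NTg, 16.4, 17.5, 22.3 and 18.4 in F08 and 14.5, 16.6 and 17.1 in F112. In cord Srsf1 stood at 25.1, 24.1, 25.2 and 25.0 RPKM in NTg, 25.4, 24.8, 25.0 and 26.4 in F08 and 25.9, 25.0, 27.1 and 24.8 in F112. All groups overlapped. Ncl encodes nucleolin, a nucleolar protein that binds G-quadruplexes, and its cortex levels were 9.07, 14.5, 12.4 and 12.8 RPKM in NTg, 11.7, 12.6, 13.9 and 13.7 in F08 and 9.86, 13.2 and 12.6 in F112. The Ncl levels in cord were 25.8, 26.2, 26.8 and 26.8 RPKM in NTg, 26.0, 26.1, 27.1 and 26.9 in F08 and 27.3, 27.3, 29.4 and 25.6 in F112. NTg 6322 and F112 6316 were the lowest cortex libraries, and F112 6324 was the highest cord library.

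Zfp106, a zinc-finger protein that binds GGGGCC RNA and whose loss causes motor neuron disease in mice, was the steadiest member in cortex, with a coefficient of variation (CV) of 4.58% over the 11 libraries. It stood there at 23.0, 23.4, 23.5 and 22.7 RPKM in NTg, 24.9, 22.1, 25.3 and 22.6 in F08 and 23.8, 21.8 and 23.6 in F112. The cord levels of Zfp106 were 26.3, 27.1, 28.8 and 28.4 RPKM in NTg, 27.7, 26.3, 28.7 and 26.8 in F08 and 27.0, 26.1, 28.3 and 29.6 in F112. The groups overlapped in both tissues.

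Pura, a single-stranded nucleic acid binding protein that binds the repeat RNA and is needed for neuronal development in mice, showed the largest log2 difference of any member in F112 cord. Its cord levels were 11.0, 9.62, 10.9 and 11.3 RPKM in NTg, 9.56, 10.9, 11.2 and 9.92 in F08 and 9.28, 9.18, 7.01 and 10.3 in F112. F112 6324 was the lowest of the 12 libraries, F112 6316 and 6317 lay just below every NTg and F08 library, and F112 6325 lay among them. The F112 minus NTg difference was −0.25 (SE 0.090, adjusted p = 0.609). It was −0.15 without F112 6324, −0.32 without F112 6325 and −0.34 with alignments as a covariate. The F112 minus F08 difference was −0.21 (SE 0.090, adjusted p = 0.451), −0.11 without F112 6324 and −0.28 without F112 6325. In cortex Pura stood at 13.1, 14.4, 14.5 and 14.6 RPKM in NTg, 16.9, 14.3, 15.9 and 15.3 in F08 and 13.2, 14.7 and 15.6 in F112. F08 held the highest library and NTg the lowest, with F08 minus NTg at 0.13 (adjusted p = 1.00), and F112 lay across both groups.

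Purb, the paralog of Pura, stood in cortex at 28.7, 31.8, 28.2 and 30.7 RPKM in NTg, 32.5, 28.3, 32.0 and 30.6 in F08 and 32.9, 30.8 and 30.4 in F112. In cord Purb stood at 31.1, 29.5, 34.2 and 31.5 RPKM in NTg, 30.3, 30.0, 33.4 and 31.9 in F08 and 32.7, 31.7, 33.8 and 32.3 in F112. The groups overlapped, with F112 minus NTg at 0.07 (SE 0.079) and F112 minus F08 at 0.02 in cortex. In F112 6324, the cord library lowest for Pura, Purb was at 33.8 RPKM, the highest of its group.

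Adarb1 encodes an enzyme that edits adenosine to inosine in glutamate receptor transcripts. Its cortex levels were 28.8, 34.2, 29.6 and 35.2 RPKM in NTg, 41.9, 32.3, 27.5 and 36.1 in F08 and 32.4, 36.3 and 30.6 in F112. Its cord levels were 42.2, 41.7, 41.4 and 39.2 RPKM in NTg, 43.0, 42.5, 39.8 and 39.7 in F08 and 40.1, 39.6, 38.1 and 40.4 in F112. The widest spread was in F08 cortex, from 27.5 to 41.9 RPKM, across the range of the other groups. Mbnl1 and Mbnl2, which expanded CUG repeats capture in myotonic dystrophy, were the other repeat-binding members. Mbnl1 stood at 8.48, 10.9, 9.17 and 12.0 RPKM in NTg, 8.24, 7.36, 10.4 and 9.34 in F08 and 7.42, 8.24 and 9.74 in F112 in cortex. Mbnl1 stood at 19.4, 18.3, 20.8 and 19.7 RPKM in NTg, 20.4, 18.9, 20.2 and 20.8 in F08 and 20.3, 19.1, 22.2 and 19.2 in F112 in cord. Its cortex differences from NTg, −0.24 (SE 0.15) in F112 and −0.19 (SE 0.14) in F08, had an adjusted p of 1.00 and overlapping groups. Without the libraries with high Ttr they were −0.42 and −0.44, with NTg 6323 and 6327, at 10.9 and 12.0 RPKM, the only NTg libraries left. The F112 difference was −0.13 with alignments as a covariate, and the F08 difference was −0.11 without NTg 6327. Mbnl2 had cortex levels of 21.7, 28.1, 29.6 and 27.7 RPKM in NTg, 26.4, 26.0, 30.7 and 29.2 in F08 and 25.6, 23.5 and 28.1 in F112. In cord, Mbnl2 had 41.9, 39.8, 41.9 and 40.5 RPKM in NTg, 41.3, 41.2, 40.1 and 43.5 in F08 and 40.9, 38.2, 44.6 and 41.5 in F112. Over these 10 genes the differences between F112 and NTg ran from −0.24 to 0.07 in cortex and from −0.25 to 0.05 in cord, and 9 of 10 cord intervals lay within 1.2-fold, the exception being Pura.

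**Figure D3:**
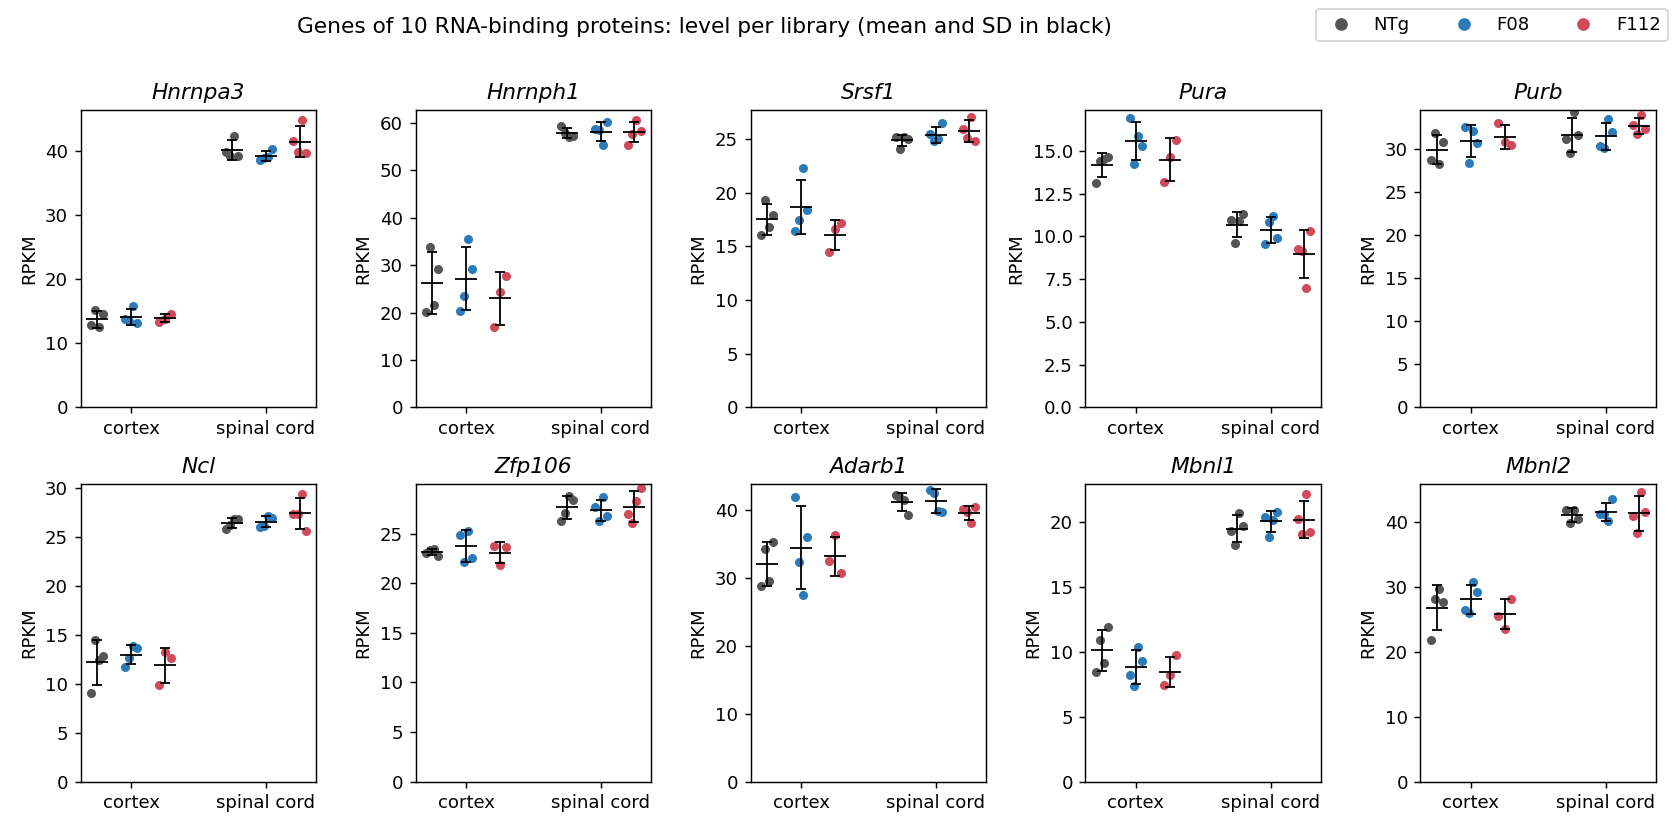
RPKM of 10 genes (1 panel each, y from 0) in every cortex and spinal cord library, by genotype (NTg grey, F08 blue, F112 red), with mean and SD in black. Genotypes overlap in every panel, cord groups are tight, and the low F112 point of Pura in cord is mouse 6324 at 7.01 RPKM.

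Among the hnRNPs, Hnrnpa1 and Hnrnpa2b1 carry mutations in familial amyotrophic lateral sclerosis and multisystem proteinopathy in people. Hnrnpa1 stood in cortex at 8.65, 12.5, 10.6 and 14.5 RPKM in NTg, 7.44, 10.9, 10.8 and 11.4 in F08 and 9.31, 10.9 and 12.8 in F112. In cord, Hnrnpa1 levels were 30.5, 31.0, 32.0 and 29.3 RPKM in NTg, 32.0, 27.0, 28.6 and 28.8 in F08 and 32.8, 31.6, 32.8 and 30.2 in F112. Its F112 minus F08 difference in cord was 0.13 (SE 0.048, adjusted p = 0.417), the smallest adjusted p of any member there, and F08 6318 lay among the F112 libraries. F08 minus NTg was −0.08 in cord and −0.17 in cortex, and F08 6318 was the lowest cortex library. The cortex difference was −0.04 without F08 6318, −0.30 without NTg 6322 and −0.44 without the libraries with high Ttr. F112 minus F08 in cortex was 0.12, −0.02 without F08 6318 and 0.24 with alignments as a covariate. Hnrnpa2b1 in cortex stood at 22.0, 32.1, 24.1 and 31.6 RPKM in NTg, 24.7, 27.6, 35.4 and 34.0 in F08 and 24.2, 25.6 and 30.8 in F112. The cord levels of Hnrnpa2b1 were 99.5, 99.6, 98.3 and 95.7 RPKM in NTg, 97.7, 97.8, 97.3 and 101 in F08 and 97.8, 97.6, 99.9 and 99.4 in F112. It had the lowest CV of any member in cord, 1.47%, with F08 6321 the highest and NTg 6327 the lowest library.

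Hnrnpa0, which binds AU-rich transcripts, stood in cord at 30.0, 22.1, 22.2 and 23.5 RPKM in NTg, 22.9, 22.7, 22.9 and 24.4 in F08 and 22.5, 21.3, 20.5 and 18.6 in F112. The NTg 6322 library was the highest, every F112 library was below every F08 library, and F112 overlapped NTg. The F112 minus NTg difference was −0.23 (SE 0.081, adjusted p = 0.609), −0.13 without NTg 6322 and −0.27 without NTg 6323. In cortex Hnrnpa0 stood at 24.6, 29.1, 24.3 and 30.5 RPKM in NTg, 26.4, 27.0, 30.9 and 29.4 in F08 and 27.3, 29.6 and 27.5 in F112. F112 minus NTg there was 0.06 (adjusted p = 1.00), and −0.08 without the libraries with high Ttr.

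Hnrnpul1, an hnRNP U-like protein with a role in DNA repair, stood in cord at 21.2, 19.9, 20.0 and 21.7 RPKM in NTg, 21.1, 20.0, 20.3 and 21.1 in F08 and 19.5, 19.4, 18.4 and 19.6 in F112. All 4 F112 libraries lay below all 8 others, the lowest being F112 6324. The differences were −0.10 from NTg (SE 0.038, adjusted p = 0.613) and −0.10 from F08 (SE 0.038, adjusted p = 0.431). The difference from NTg was −0.18 with alignments as a covariate and −0.08 without NTg 6327. In cortex its levels were 14.9, 19.8, 14.0 and 16.2 RPKM in NTg, 15.5, 15.0, 20.4 and 18.1 in F08 and 15.7, 15.8 and 19.3 in F112. The cortical groups overlapped.

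Hnrnpl, which binds CA-rich RNA and regulates exon inclusion, stood in cortex at 38.5, 42.9, 41.3 and 37.0 RPKM in NTg, 37.4, 41.7, 41.1 and 43.0 in F08 and 36.5, 36.3 and 34.6 in F112. The 3 F112 libraries lay below every other library, the nearest being NTg 6327. The means were 35.8 ± 1.04 RPKM in F112, 39.9 ± 2.67 RPKM in NTg and 40.8 ± 2.40 RPKM in F08, with differences of −0.15 from NTg (SE 0.080, adjusted p = 1.00) and −0.19 from F08 (SE 0.080, adjusted p = 1.00). In cord Hnrnpl stood at 44.1, 44.1, 43.1 and 42.3 RPKM in NTg, 43.6, 41.1, 41.2 and 44.0 in F08 and 43.8, 42.8, 40.2 and 41.2 in F112. The groups overlapped there. Its paralog Hnrnpll, a splicing regulator of lymphocytes, had cortex levels of 6.94, 8.44, 6.87 and 7.54 RPKM in NTg, 7.32, 8.54, 10.2 and 8.17 in F08 and 6.85, 7.73 and 8.73 in F112. In cord Hnrnpll had 10.0, 8.94, 9.47 and 9.87 RPKM in NTg, 9.34, 8.23, 9.39 and 9.63 in F08 and 9.14, 8.23, 9.36 and 8.75 in F112. F08 minus NTg was 0.18 in cortex (adjusted p = 1.00), where F08 6320 was the highest library, and it was 0.10 without that library and 0.0029 without the libraries with high Ttr.

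Hnrnpd, which binds AU-rich elements and speeds decay, and its neighbour and paralog Hnrnpdl were the 2 members whose F08 and NTg groups parted in cord. Hnrnpd stood in cord at 14.2, 13.7, 14.2 and 13.6 RPKM in NTg, 13.0, 13.2, 13.5 and 13.5 in F08 and 14.9, 13.8, 15.1 and 13.1 in F112. Hnrnpdl stood in cord at 41.3, 39.0, 39.6 and 38.4 RPKM in NTg, 36.4, 36.1, 37.5 and 38.4 in F08 and 43.3, 41.5, 41.0 and 32.3 in F112. In both, every F08 library lay below every NTg library, by a narrow margin, and F112 spanned both groups. The F08 minus NTg differences were −0.07 for Hnrnpd and −0.09 for Hnrnpdl (adjusted p = 1.00 for both), and with alignments as a covariate they were −0.02 and −0.01. F112 minus F08 was 0.09 for Hnrnpd (adjusted p = 0.476). In cortex Hnrnpd had 7.25, 9.01, 7.34 and 8.04 RPKM in NTg, 8.19, 6.32, 8.22 and 8.26 in F08 and 6.12, 7.64 and 8.58 in F112. For Hnrnpdl the cortex levels were 14.0, 21.7, 16.6 and 22.2 RPKM in NTg, 16.0, 16.4, 22.7 and 20.8 in F08 and 15.2, 17.6 and 19.7 in F112. F112 6325 was the lowest cord library for Hnrnpdl and the lowest of its group for Hnrnpd, and in that library Rn45s, the ribosomal RNA precursor, was at 459 RPKM against 31.5 to 82.6 RPKM in the other cord libraries; its part in these values was not tested.

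Hnrnpf and Hnrnph2, close relatives of Hnrnph1 that bind the same G tracts, and Hnrnpk completed the hnRNPs examined by library. Hnrnpf stood in cortex at 12.8, 19.5, 15.0 and 19.4 RPKM in NTg, 18.6, 15.6, 21.9 and 15.9 in F08 and 14.8, 16.1 and 20.2 in F112. Hnrnpf stood in cord at 29.9, 29.9, 31.9 and 30.7 RPKM in NTg, 31.5, 29.7, 30.5 and 31.0 in F08 and 29.3, 29.8, 31.9 and 32.4 in F112. For this gene F112 6325 was the highest cord library, above NTg 6326 by less than the range of NTg. Hnrnph2 stood at 17.3, 22.6, 22.0 and 23.8 RPKM in NTg, 20.9, 20.8, 24.6 and 20.0 in F08 and 19.7, 22.1 and 22.2 in F112 in cortex. Hnrnph2 stood at 35.3, 33.8, 35.5 and 32.6 RPKM in NTg, 35.0, 31.6, 34.0 and 33.8 in F08 and 34.5, 31.8, 34.5 and 33.8 in F112 in cord. The low cortex library was NTg 6322. Hnrnpk had 35.4, 43.1, 35.5 and 38.3 RPKM in NTg, 36.2, 38.5, 44.6 and 40.5 in F08 and 34.7, 33.9 and 45.1 in F112 in cortex. Hnrnpk had 115, 119.8, 115 and 115 RPKM in NTg, 119, 113, 116 and 122 in F08 and 119, 113, 129 and 115 in F112 in cord. F112 6324 was the highest library in both tissues. Hnrnpr, which accompanies actin transcripts along motor axons, had 4.14, 6.02, 4.65 and 4.73 RPKM in NTg, 4.66, 4.33, 5.20 and 5.18 in F08 and 4.78, 5.01 and 5.47 in F112 in cortex. In cord Hnrnpr had 7.66, 7.28, 7.62 and 7.40 RPKM in NTg, 7.85, 7.36, 7.30 and 7.73 in F08 and 7.87, 7.58, 8.31 and 7.20 in F112. Its F112 minus F08 difference in cortex was 0.07 with overlapping groups. Near-identical paralogs and processed pseudogenes exist for several of these genes, such as Hnrnpa1, Hnrnpa3, Hnrnpk and the pair Hnrnph1 and Hnrnph2, and the sources used here do not say how shared reads were assigned, so their levels are uncertain to that extent.

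Among the SR proteins, Srsf2, which marks nuclear speckles, stood in cortex at 32.2, 48.9, 38.6 and 52.1 RPKM in NTg, 39.7, 44.0, 53.2 and 52.2 in F08 and 36.4, 41.9 and 45.6 in F112. In cord Srsf2 stood at 40.0, 35.3, 38.5 and 39.8 RPKM in NTg, 38.3, 38.7, 37.7 and 41.3 in F08 and 36.9, 37.9, 35.8 and 35.0 in F112. F112 libraries were low but overlapped both other groups. Srsf3, the smallest SR protein and an export adaptor, stood in cortex at 11.8, 16.3, 13.4 and 16.5 RPKM in NTg, 16.9, 16.2, 16.7 and 16.0 in F08 and 13.8, 13.9 and 15.9 in F112. In cord Srsf3 stood at 34.1, 33.5, 35.6 and 34.8 RPKM in NTg, 34.3, 34.4, 34.2 and 35.8 in F08 and 34.1, 34.9, 39.1 and 35.4 in F112. Every cortical F112 library lay below every F08 library, by a margin of less than 1 RPKM, while NTg spanned both. F08 minus NTg was 0.19 in cortex, and −0.0030 without the libraries with high Ttr, and F112 minus NTg was 0.05 in cord.

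Srsf4 stood in cortex at 13.3, 14.3, 15.7 and 13.7 RPKM in NTg, 16.6, 14.5, 14.9 and 16.8 in F08 and 11.2, 15.3 and 11.9 in F112. In cord Srsf4 stood at 18.7, 17.2, 16.3 and 19.5 RPKM in NTg, 19.2, 21.0, 19.0 and 18.9 in F08 and 18.1, 18.1, 15.1 and 18.3 in F112. It was the member with the largest F112 minus F08 difference in cortex, −0.30 (SE 0.11, adjusted p = 1.00), where F112 6317 lay among the F08 libraries. The cord difference was −0.17 (SE 0.065, adjusted p = 0.431), with the 4 F112 libraries below the 4 F08 libraries and F112 6324 the lowest, and it was −0.10 without F112 6324. F08 minus NTg in cord was 0.12, with F08 6319 the highest library.

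Srsf5, the most abundant SR transcript in both tissues, stood in cortex at 70.2, 65.0, 54.7 and 63.3 RPKM in NTg, 48.4, 61.5, 68.4 and 62.4 in F08 and 50.3, 57.4 and 58.1 in F112. In cord Srsf5 stood at 95.8, 92.1, 89.0 and 88.5 RPKM in NTg, 85.7, 88.8, 94.2 and 91.1 in F08 and 94.0, 92.3, 85.7 and 77.6 in F112. F08 6318 and F112 6316 were low in cortex and F112 6325 in cord, and the cortical differences from NTg were −0.19 for F112 and −0.08 for F08, the latter 0.02 without F08 6318. Srsf7, an SR protein with a zinc knuckle, had cortex levels of 15.4, 22.6, 17.1 and 17.8 RPKM in NTg, 16.8, 16.3, 19.5 and 18.9 in F08 and 15.1, 17.9 and 21.8 in F112. In cord Srsf7 had 27.6, 26.7, 28.2 and 27.6 RPKM in NTg, 27.2, 26.0, 26.9 and 27.4 in F08 and 28.3, 27.3, 28.1 and 27.4 in F112. Groups overlapped in both tissues.

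Srsf9 stood in cortex at 17.6, 17.4, 17.5 and 23.9 RPKM in NTg, 16.5, 23.5, 23.6 and 21.6 in F08 and 15.7, 18.9 and 17.3 in F112. In cord Srsf9 stood at 11.2, 12.0, 10.9 and 12.4 RPKM in NTg, 11.7, 11.3, 11.8 and 12.3 in F08 and 10.9, 11.6, 10.2 and 10.9 in F112. F112 minus F08 was −0.28 in cortex (SE 0.15, adjusted p = 1.00), where F08 6318 lay among the F112 libraries. Srsf10, which represses splicing when it loses its phosphates, had 5.81, 7.46, 6.46 and 6.07 RPKM in NTg, 6.91, 5.65, 8.00 and 6.21 in F08 and 4.76, 4.80 and 6.91 in F112 in cortex. In cord Srsf10 had 13.7, 13.3, 14.2 and 14.6 RPKM in NTg, 14.6, 14.4, 14.2 and 14.7 in F08 and 14.6, 13.8, 16.4 and 14.0 in F112. The cord differences from NTg were 0.07 in F112 and 0.05 in F08, and the groups overlapped. Srsf12, a repressor of the same subgroup, stood in cortex at 3.43, 4.23, 4.22 and 3.52 RPKM in NTg, 3.35, 4.13, 4.36 and 4.58 in F08 and 3.40, 4.21 and 4.84 in F112. In cord Srsf12 stood at 3.68, 3.08, 3.42 and 3.66 RPKM in NTg, 3.51, 3.07, 3.51 and 3.53 in F08 and 4.01, 3.51, 3.41 and 2.90 in F112. F112 minus NTg in cortex was 0.09, and −0.02 without F112 6324.

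Tra2a and Tra2b activate exons with GAA-rich enhancers. Tra2a stood in cortex at 10.5, 14.0, 13.3 and 13.2 RPKM in NTg, 10.5, 13.3, 14.4 and 13.9 in F08 and 9.78, 13.4 and 14.9 in F112. In cord Tra2a stood at 21.7, 23.3, 23.7 and 22.9 RPKM in NTg, 23.0, 23.3, 22.3 and 24.2 in F08 and 23.7, 23.4, 23.8 and 24.9 in F112. F112 minus NTg in cord was 0.06, with F112 6325 the highest library. Tra2b stood in cortex at 7.34, 10.4, 8.59 and 11.1 RPKM in NTg, 11.0, 8.35, 11.5 and 11.3 in F08 and 8.17, 9.39 and 9.53 in F112. In cord Tra2b stood at 23.6, 23.5, 25.8 and 25.4 RPKM in NTg, 25.5, 23.6, 24.7 and 25.1 in F08 and 23.8, 24.1, 26.4 and 25.0 in F112. The groups overlapped in both tissues, and NTg 6322 was the lowest cortex library for Tra2b. The 8 members outside the rule for values by library (Hnrnpab, Hnrnpc, Hnrnph3, Hnrnpm, Hnrnpu, Hnrnpul2, Srsf6 and Srsf11) had overlapping groups in all 6 comparisons, and of these Hnrnph3 is given by cortex library with its slope. Their means in nontransgenic mice ran from 3.40 RPKM (Hnrnph3) to 43.1 RPKM (Hnrnpu) in cortex and from 13.7 RPKM to 72.0 RPKM in cord, for the same genes.

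Between cortex libraries most members were higher where the library held more alignments, with a slope called above 0 in 12 of 40, against 5.63% of all genes. The median CV over the libraries of a tissue was 12.6% in cortex (from 4.58% to 34.7%) and 4.10% in cord (from 1.47% to 12.1%), against 15.4% and 6.09% for all genes and 10.65% and 4.48% for the genes averaging 10 RPKM or more. Cortex libraries fell into 5 with 13115500 to 14715900 alignments (NTg 6323 and 6327, F08 6320 and 6321, F112 6324) and 6 with 9398450 to 11512300. The median deviation of the 40 members from their own cortex means, on the log2 scale, was between 0.09 and 0.19 in the 5 libraries and between −0.22 and −0.02 in the 6, while that of all genes stayed between −0.08 and 0.09. Members above their own mean numbered 38 in NTg 6323, 29 in NTg 6327, 39 in F08 6320, 36 in F08 6321 and 31 in F112 6324, the libraries with more alignments. In the others they numbered 1 in NTg 6322, 10 in NTg 6326, 10 in F08 6318, 14 in F08 6319, 2 in F112 6316 and 13 in F112 6317. This pattern was found after the values had been seen.

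**Figure D4:**
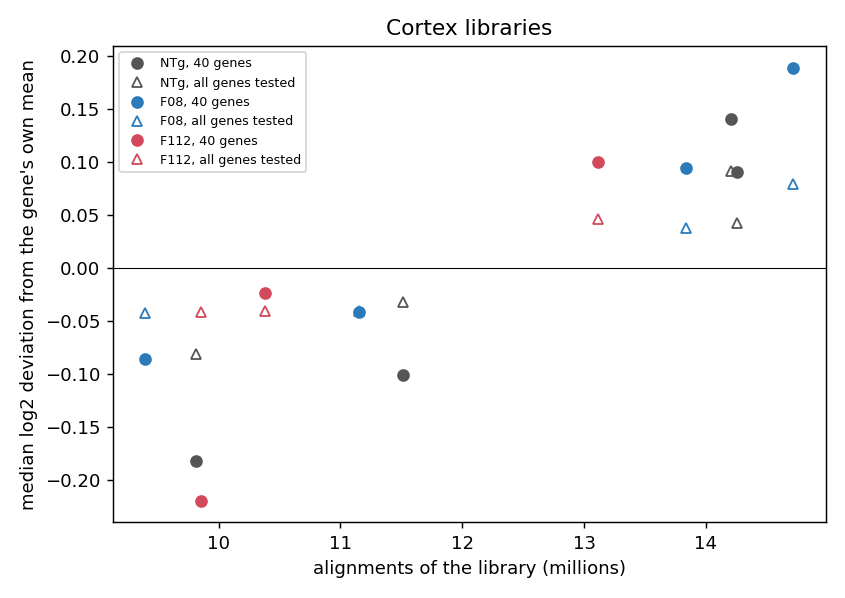
Median log2 deviation of the 40 genes (filled circles) and of all genes tested (open triangles) from each gene's own cortex mean (y) against the number of alignments of the library (x, in units of 1000000), coloured by genotype. The 5 libraries at the right all lie above 0 and the 6 at the left below it, and the 40 genes lie farther from 0 than all genes in 10 of the 11 libraries.

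A slope with log2 alignments, fitted with limma beside the genotype in cortex, was called above 0 for 12 of 40 members, where 5.63% of all genes were called above 0 and 0.447% below. The median slope was 0.49 log2 units per doubling of alignments for the members and 0.23 for all genes. The slope was above 0 for 38 of the 40 members and for 73.1% of all genes. Members higher in all 5 of the libraries with more alignments than in all 6 others numbered 12, against 7.11% of all genes. They were not all the same genes, since Hnrnpa1 and Tra2a had a called slope but were not among them. Both counts rest on the same libraries, so the second adds no separate support. Hnrnph3 had the steepest slope, 1.77 (SE 0.29, adjusted p = 0.0163). Its cortex levels were 1.58, 4.50, 3.00 and 4.52 RPKM in NTg, 2.43, 2.13, 4.64 and 4.03 in F08 and 1.89, 3.18 and 3.89 in F112. Its lowest value with more alignments, in F112 6324, exceeded its highest value with fewer, in F112 6317. Hnrnph1, its relative, followed with 1.22 (SE 0.19, adjusted p = 0.0141), then Srsf6 with 1.07 (SE 0.17, adjusted p = 0.0145) and Hnrnpdl with 0.93 (SE 0.14, adjusted p = 0.0132). The other 8 called were Hnrnpa1, Hnrnpm, Hnrnpa2b1, Srsf2, Hnrnpab, Tra2a, Mbnl1 and Hnrnpu, with slopes from 0.92 (Hnrnpa1) down to 0.52 (Hnrnpu). Slopes between −0.17 and 0.12 belonged to Adarb1, Srsf4, Zfp106, Purb, Hnrnpl and Pura. Naming Hnrnph3, Hnrnpm, Hnrnpab, Hnrnpu and Srsf6 here was decided after their values were seen.

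The count of 12 rested on the scaling and on single libraries. With median-of-ratios scaling, which brought the median slope of all genes to 0.0011, the member median was 0.24 and 6 members were called, against 1.6% of all genes. Without the 3 libraries with high Ttr no gene of the tissue was called by limma, and the member median was 0.42 (all genes 0.19). In that fit 14 members had an unadjusted p under 0.05, and the share of all genes at that level was not taken. Leaving out single libraries gave from 5 members (NTg 6322, with 1.11% of all genes called, or F08 6320, with 0.5%) to 14 members (F08 6318, with 6.47%). Other measures moved with the alignments: Rn45s was at 2203 to 2640 RPKM in F08 6318, F112 6316 and F112 6317, all with fewer alignments, and at 587 to 1324 RPKM in the other 8. Xist, which is expressed from the inactive X chromosome of females, was at 24.8 to 36.5 RPKM in 5 of the 6 libraries with fewer alignments and in 1 of the 5 with more, and at most 0.495 RPKM in the rest. With Xist beside alignments in the fit the member median slope was 0.57 (all genes 0.27), and 2 members were called, against 0.144% of all genes. With Rn45s beside alignments it was 0.60 (all genes 0.29), and 5 members were called, against 1.16% of all genes. In cord the same slope was called for 0 of 40 members and 0% of all genes in either direction, with a member median of 0.065 and 1 member at an unadjusted p under 0.05 (2.9% of all genes).

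Genotype and depth were not balanced in cortex, since 1 of 3 F112 libraries was among those with more alignments, against 2 of 4 in NTg and F08. Within the 5 libraries with more alignments the member median was −0.05 for F112 minus NTg, 0.03 for F08 minus NTg and −0.04 for F112 minus F08, with a single F112 library and so no test. Within the 6 with fewer it was 0.04, 0.07 and −0.07. Over all genes the medians were −0.03, −0.01 and −0.02 with more alignments and 0.01, 0.01 and 0.0022 with fewer. The sign of the member median for F112 minus NTg differed between these classes. The member median was above 0 in both for F08 minus NTg and below 0 in both for F112 minus F08. With alignments as a covariate, it came to 0.06 for F112 minus NTg, 0.07 for F08 minus NTg and −0.02 for F112 minus F08.

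**Figure D5:**
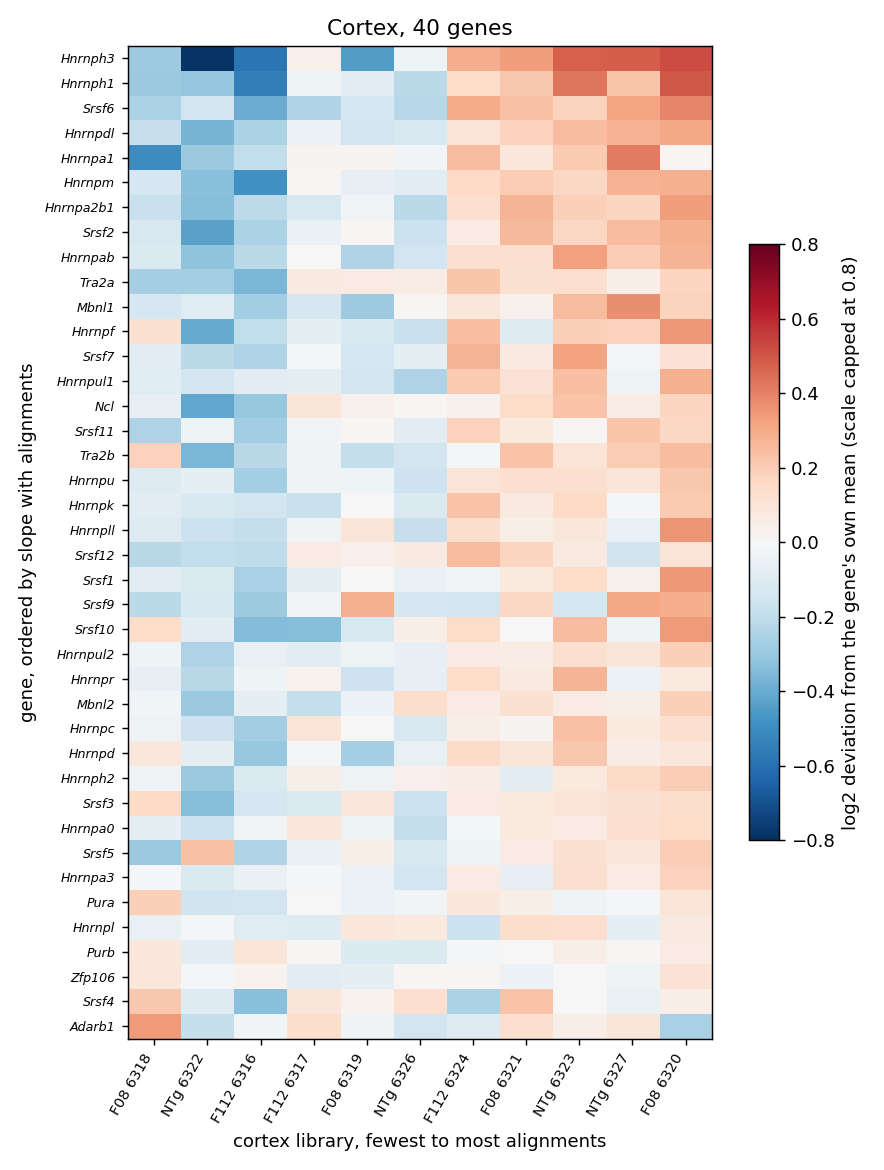
Log2 deviation from the gene's own cortex mean (colour, scale capped at 0.8) of the 40 genes (rows, steepest slope with alignments at the top) in the 11 cortex libraries (columns, fewest alignments at the left). Red fills the 5 columns at the right for most rows, Hnrnph3 and Hnrnph1 are strongest, and the bottom rows such as Zfp106, Srsf4 and Adarb1 do not follow the columns.

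Transcript length and base composition were compared with the slopes as a description. The longest protein-coding transcript of the members had a median GC content of 44.1% against 50.6% over the 12673 genes with a transcript (91.4% of those tested), and a median length of 3111 against 3222 bases. Across the 40 members Spearman's rho between slope and GC was 0.038, and between slope and length −0.38; across all genes the values were −0.16 and −0.046. All points share the same 11 libraries, so these values describe the tables only.

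Genes that act with these proteins showed no call either. Of 13 measured kinases, arginine methyltransferases and importins that phosphorylate, modify or carry SR and hnRNP proteins (such as Srpk1, Clk1 and Tnpo3), 25 SR-related and exon junction genes, 31 core spliceosome genes and 27 other neural splicing regulators (such as Nova1, Rbfox1 and Ptbp2), 0 were called higher and 0 lower in each of the 6 comparisons by limma. At an unadjusted p under 0.05 these 96 entries numbered 1 (1.97% of all genes), 0 (2.61%) and 2 (2.47%) in cortex and 4 (7.11%), 5 (4.1%) and 9 (10.4%) in cord, for F112 against NTg, F08 against NTg and F112 against F08. The median difference of F112 from NTg in these 4 lists ran from −0.05 to −0.02 in cortex, beside −0.02 for all genes, and from −0.0092 to 0.024 in cord, beside −0.0099. In cortex, F112 minus F08 medians ran from −0.10 to −0.03, below 0 in all 4 lists as in the members, beside −0.02 for all genes.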

How the data were processed

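RNA-seq values were taken from 1 deposited table per tissue, in RPKM as scaled by the authors, with the alignments of each library in the same table. Per the submitters' processing notes, the tools included Partek and TopHat2 (2.0.8b), and 2 builds, mm10 and mm9, were used. The sources used here do not give the role of each, the gene model, the counting or the strandedness. Per the labels' protocols, brain libraries followed Ion Torrent and spinal cord libraries Illumina protocols. Raw counts were not used here, so no count model was fitted.

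Libraries were grouped by the genotype and tissue in the labels. Nothing states how samples were drawn beyond the mouse numbers. The p-values set each difference against the spread between libraries within genotypes, with 1 library per mouse in a tissue. Differences between mice and between preparations cannot be told apart in that spread. Genes below a tissue mean of 0.5 RPKM were dropped. Log2(RPKM + 0.5) was fitted in R 4.3.3 with limma 3.58.1 (empirical Bayes with a mean-variance trend, two-sided), 1 fit per tissue over its 3 genotypes, with Benjamini-Hochberg adjustment over all genes tested and a call at 0.05. Fold changes on this scale understate those of low genes. The fits were tested on simulated data. Slopes with alignments, the classes of cortex libraries with more or fewer alignments, and the Xist and Rn45s terms beside them were chosen after the values had been seen.

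Values by library were given for any called member, for the 3 members with the smallest p on each side of 0 in each comparison, and for a fixed set of 18 members, 32 genes in all. The members and lists were chosen with earlier results of these data known, and 1 further list of RNA-binding proteins is not reported here. Alternatives covered scaling, pseudocount, filter, the groups in the fit, empirical Bayes and array weights, covariates, and libraries left out. Upstream sequences came from RefSeq (GRCm38.p6) and transcript features and positions from GENCODE M21.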

Additional observations from a re-analysis of the deposited data

Results flagged for a closer look

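Values were checked in 160 groups of 4 libraries (32 genes in 5 groups, as the cortex F112 group has 3 libraries). In 13 of them a single library stood apart from the other 3 by Dixon's ratio at the 95% level, some libraries for several genes. That is 8.12% of the groups, where chance gives about 5% for independent groups. The 32 genes share the same libraries and some were picked by p in these data, so these percentages cannot be compared as a test. In cord, F08 6321 was highest for Hnrnpa0 (24.4 RPKM, the others 22.7 to 22.9), Hnrnpa2b1 (101 RPKM, the others 97.3 to 97.8) and Srsf3 (35.8 RPKM, the others 34.2 to 34.4). F08 6319 was lowest in cord for Srsf12 (3.07 RPKM, the others 3.51 to 3.53) and highest for Srsf4 (21.0 RPKM, the others 18.9 to 19.2). NTg 6323 was highest in cord for Hnrnpk (119.8 RPKM, the others 115 at most) and lowest for Srsf1 (24.1 RPKM, the others 25.0 to 25.2). F112 6324 was lowest in cord for Srsf4 (15.1 RPKM, the others 18.1 to 18.3).

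In cortex, F08 6318 was lowest for Hnrnpa1 (7.44 RPKM, the others 10.8 to 11.4). F08 6319 was lowest for Hnrnpd (6.32 RPKM, the others 8.19 to 8.26) and for Tra2b (8.35 RPKM, the others 11.0 to 11.5). NTg 6322 was lowest for Pura (13.1 RPKM, the others 14.4 to 14.6) and NTg 6327 highest for Srsf9 (23.9 RPKM, the others 17.4 to 17.6).

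For Hnrnpa0 every F112 library lay above the NTg mean in cortex and below it in cord: the F112 minus NTg difference was 0.058 in cortex and −0.23 in cord. The difference between tissues was not tested, since the tables were normalized separately.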

How the results depend on the processing

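No paired analysis was possible because the genotypes compared within a tissue are different mice; the mouse numbers are shared only between the tissues, which were not tested against each other. Under 23 alternatives in each tissue the count of called members stayed at 0 in all 6 comparisons. Of 826 recomputed values of the 36 named differences none passed the threshold, 819 kept their sign and 7 turned. In cortex these were F112 minus NTg of Hnrnpa0 (−0.084) and F08 minus NTg of Srsf3 (−0.0030) without the libraries with high Ttr, F08 minus NTg of Srsf5 (0.021) and F112 minus F08 of Hnrnpa1 (−0.017) without F08 6318, F112 minus F08 of Purb without F08 6319 (−0.018) or F112 6316 (−0.013), and F112 minus NTg of Srsf12 without F112 6324 (−0.017). With single libraries left out these ran from −0.15 to 0.021 for Srsf5, from −0.017 to 0.23 for Hnrnpa1, from −0.018 to 0.048 for Purb and from −0.017 to 0.21 for Srsf12. Under at least 1 alternative 14 of 18 named differences in cortex and 15 of 18 in cord moved by over 1.5 times. The cortical member medians moved to −0.17 for F112 minus NTg and −0.13 for F08 minus NTg without the libraries with high Ttr. That setting kept only NTg 6323 and 6327 in NTg, both among the libraries with more alignments. With single libraries left out these medians ran from −0.12 to 0.05 and from −0.0020 to 0.11, and from −0.17 to −0.01 for F112 minus F08.

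Counts over all genes were unstable because so few were called. In cortex F08 against NTg went from 0 to 1 with median-of-ratios scaling and to 3 without high Ttr, F112 against NTg gave 1 to 2 and F112 against F08 gave 0 to 1 with single libraries left out. In cord F112 against NTg went from 1 to 0 with a pseudocount of 1, no filter, a 5 RPKM minimum, a fit of the compared groups alone, array weights or alignments as a covariate, and gave 0 to 2 with libraries left out. Cord F08 against NTg went from 1 to 2 with robust empirical Bayes, array weights or Xist as a covariate and to 0 with alignments as a covariate. Cord F112 against F08 went from 3 to 1 with no filter, a 5 RPKM minimum or the compared groups alone, to 6 with array weights or Xist as a covariate, and gave 1 to 4 with libraries left out.

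The 12 members with a called cortical slope (5.63% of all genes) became 6 with median-of-ratios scaling (1.6% of all genes) or quantile scaling (1.28%). The count was 0 without the libraries with high Ttr (0%), and 2 with Xist (0.144%) and 5 with Rn45s (1.16%) beside alignments. With single libraries left out it ran from 5 (1.11% or 0.5% of all genes) to 14 (6.47%). The cause was not tested. In cortex, with 9398450 to 14715900 alignments and 3 or 4 libraries a group, intervals within 1.2-fold held for 7, 7 and 5 of 40 members; the part of depth in this was not tested.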
